A study of Mus musculus with 18 samples.

Results

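The comparison described here set C2C12 cells that were wetted with trypsin for an instant against C2C12 cells that stayed in the same trypsin for 3 min. C2C12 is an established mouse myoblast line, that is, a line of proliferating muscle precursors. Wells of both groups were rinsed in PBS before 200 µL of trypsin at 0.25% was added at 37 °C. For low trypsin, the enzyme was removed straight away and the wells then stood at 37 °C for 3 min. Any enzyme left behind was not measured, and the titles name the group by a low trypsin level. For the 3 min group, the enzyme remained on the cells during those 3 min. Both groups therefore shared the cell line, the medium with 20% fetal bovine serum, the washes, the temperature and the time. They differed in whether the trypsin was removed at once or left on. The amount of enzyme, its time on the cells and the fluid over them changed together and cannot be told apart. The labels gave no genotype change and no agent beyond trypsin, and they did not say whether the trypsin of the 3 min wells was drawn off before the lysis buffer went in. The members were chosen by these labels alone: 3 low trypsin and 3 3-min libraries, 6 of the 18 libraries of the study. The other 12 were scraped controls lysed in the plate and cells given trypsin for 30 s, trypsin for 30 min or a protease that works in the cold; the controls and the 30 s cells are used below only to place the levels.

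Trypsin cuts proteins after lysine and arginine and frees adherent cells by cleaving their attachments to the matrix and to each other. It also cuts receptors at the cell surface, among them the protease-activated receptors, which signal when their outer end is clipped. Signals from detachment and from such receptors reach the nucleus through serum response factor, the YAP and TEAD proteins and immediate early genes, while the mRNAs of ribosomal proteins and respiratory subunits are abundant, mostly short and usually stable. RNA was read by BRB-seq, a method that tags every sample with its own barcode, pools the cDNA and sequences mostly the stretch next to the poly(A) tail.

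The 3 min libraries held 1490869 to 1778662 counts and the low trypsin libraries 1889521 to 2158249, so the deeper group was the one in which more genes were called higher. Within a group, the 6 pairs of libraries differed by more than sampling noise (chi-square per degree of freedom 1.86 to 2.25). The labels number the libraries of a group as lots without saying what a lot is; the spread behind each p-value is therefore only that between libraries, which may be technical. Of 9 myoblast markers all were listed in the count table, none was at 0 in all 6 libraries, and 7 had enough counts to be tested. The summed level of the 9 was 1457 to 1493 CPM (TMM-scaled counts relative to library size) in low trypsin and 1644 to 1676 CPM after 3 min. Of 5 endothelial markers, Pecam1, Kdr, Tek and Emcn were at 0 in all 6 libraries, as were Adgre1 among the macrophage and Lum among the fibroblast markers. Gfap, of the neuronal and glial markers, was not listed in the count table. Summed levels were 7.01 to 9.46 CPM in low trypsin against 7.66 to 12.1 after 3 min for fibroblasts, 1.40 to 3.98 against 4.12 to 7.10 for macrophages, 1.40 to 5.98 against 3.35 to 4.71 for neurons and glia and 21.9 to 23.4 against 13.4 to 18.3 for adipocytes, with Adipoq, Plin1 and Lep at 0 or not listed. Markers of differentiated muscle summed to 87.4 to 108 CPM against 104 to 130 CPM. No marker of any of these lists was called higher and 1 of the myoblast list was called lower. The myoblast, macrophage and adipocyte sums did not overlap between the groups, and their part in the results below was not tested. In bulk RNA, fewer cells of a type and less RNA per cell cannot be told apart.

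Low trypsin cells had more mRNA for ribosomal proteins, for subunits of the respiratory chain and for many other short transcripts than cells left in trypsin for 3 min. Single genes of other lists, among them Ccn2, Tagln, Plaur, Plau and Egr1, were also higher, while most members of those lists were not called. The nuclear long noncoding RNAs Neat1 and Malat1 and the proliferation marker Mki67 were lower in low trypsin, less firmly. Without 3 min replicate 2, Neat1 and Malat1 did not pass the test, and Malat1 and Mki67 did not pass with DESeq2. Of 10075 genes tested, 439 were called, that is 4.36%, at an adjusted p under 0.05 (edgeR quasi-likelihood F test, Benjamini-Hochberg adjustment over all tested genes; 1286 were under 0.05 before adjustment). Among them 381 were higher in low trypsin (3.78% of the genes tested) and 58 were lower (0.576%). The higher genes had a median log2 difference of 0.63 and 73 of them were past 2-fold; the lower genes had a median of -0.41 and 5 were past 2-fold. The libraries of the 2 groups did not overlap in CPM for 1713 genes, or 17.0%. For a single gene an exact permutation test of 3 against 3 libraries cannot go below p = 0.1, so the calls rest on the model across all genes.

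**Figure D1:**
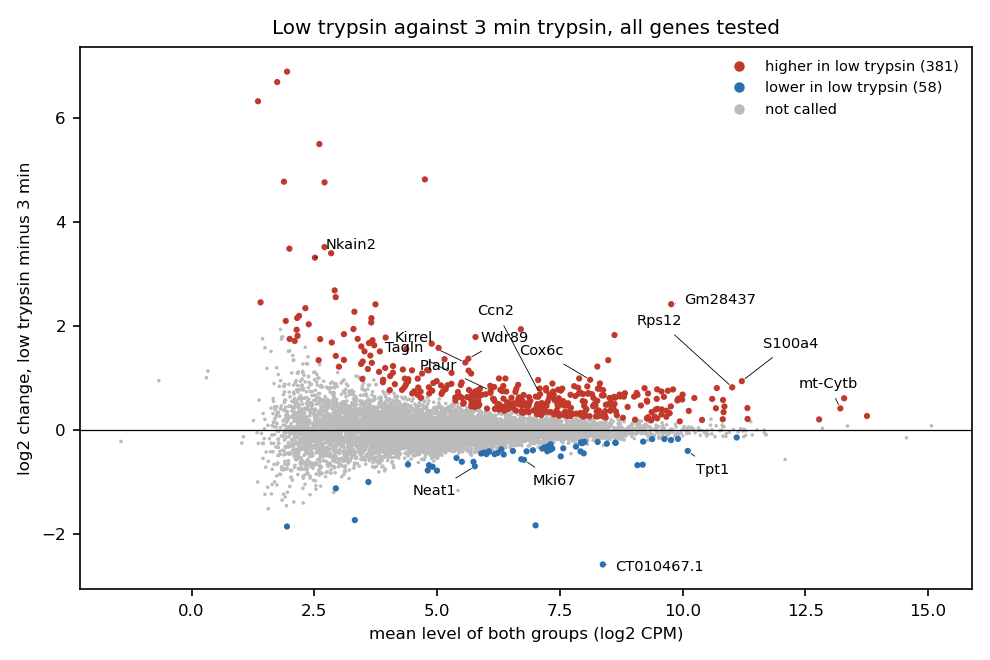
Each point is 1 of 10075 genes; the horizontal axis is the mean level of both groups (log2 CPM) and the vertical axis the log2 difference, low trypsin minus 3 min. The 381 higher genes (red) reach from low to high levels, while all but 5 of the 58 lower genes (blue) lie within 1 log2 unit of 0.

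A difference in the kind of gene lay beside the difference in number. The 381 higher genes were 303 protein-coding genes, 69 pseudogenes and 9 others, and 93 of the 303 belonged to the lists of ribosomal proteins and nuclear-encoded respiratory subunits. The 58 lower genes were 52 protein-coding genes, 4 long noncoding RNAs and 2 others, with no pseudogene. Near-identical copies elsewhere in the genome make the values of many of these genes uncertain, because it was not stated how reads with several matches were counted: 141 of the higher and 18 of the lower genes had such a copy, against 713 of all genes tested. Among genes for which the search found no copy, fitted alone, 239 were higher and 23 lower. Overlapping genes add to this, as the strand used in counting was not stated: of the 108 genes named, 48 share exon positions with another gene, among them Rpl31, Cox6c, Ndufa2, Ccn2, Tagln, Usp50, Noc2l, Nsa2, Zbtb22, Trmt10a, Nkap and Cdc20. Against scraped controls, which serve both protocols, low trypsin had 523 genes called (5.19%), 332 higher (3.30%) and 191 lower (1.90%), and 3 min trypsin had 399 (3.96%), 102 higher (1.01%) and 297 lower (2.95%).

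Ribosomal protein mRNAs made up the lists with the most protein-coding genes called higher. Of 33 proteins of the small subunit, 23 rose and 3 fell, with a median log2 difference of 0.43, and of 48 proteins of the large subunit 27 rose and 2 fell, with a median of 0.31; the median of all genes was -0.01 and 3.78% of them rose. The ribosomal lists together took 6.03% ± 0.17 (SD, n = 3) of the counts of a low trypsin library and 5.05% ± 0.01 of a 3 min library (exact permutation p = 0.1, two-sided, the smallest the design allows). Control libraries stood at 6.59% ± 0.11 and 30 s libraries at 5.17% ± 0.02.

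Rps12, a protein of the small subunit, had 2843, 2617 and 2449 CPM in the 3 low trypsin libraries and 1413, 1457 and 1601 CPM in the 3 min libraries. The groups did not overlap, and the lowest low trypsin library was far above the highest 3 min library. The log2 difference was 0.82 ± 0.05 (SE; edgeR adjusted p = 1.38e-18). Its control level was 2616 ± 56.0 CPM, so low trypsin differed from control by 0.01 (edgeR adjusted p = 0.952) and 3 min by -0.81 (edgeR adjusted p = 4.94e-18). Rps26 and Rps20, of the same subunit, rose by 0.81 and 0.78. In the large subunit, Rpl30 had 1122, 1016 and 999 CPM in low trypsin and 624, 616 and 615 CPM after 3 min. Its 3 min libraries were nearly equal and far under the low trypsin libraries, with a log2 difference of 0.76 ± 0.05 (edgeR adjusted p = 1.7e-16). Rpl31 rose by 0.79 and Rpl23 by 0.74. Neither of these, nor Rps20, has a near-identical copy, whereas Rps12, Rps26 and Rpl30 do; in all, 63 of the 81 have one. With genes that have a copy by this search left out, 13 ribosomal protein genes were called higher and 0 lower, and their median was 0.48. In that fit 239 of all 9362 genes tested were called higher.

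The members did not move as 1 block. Differences ran from -0.55 (Rpl23a, not called) to 1.19 (Rpl24), and 26 of 81 were not called in either direction. Rps2, Rpl7a, Rpl6, Rpsa and Rps6 fell by 0.14, 0.17, 0.22, 0.17 and 0.43 (edgeR adjusted p = 0.0256 to 0.047). Rps2, for example, had 2087, 2085 and 2101 CPM in low trypsin and 2283, 2282 and 2342 CPM after 3 min, a small gap without overlap, whereas the libraries of Rps6 overlapped. The search found 45, 49, 5 and 12 near-identical copies of Rps2, Rpl7a, Rpl6 and Rps6, and Rpsa has the processed copy Rpsa-ps2. These falls may depend on how shared reads were counted, which was not tested. Each of these 5 calls was lost in 4 to 6 of the 6 fits that leave out 1 library; without 3 min replicate 2, Rps6 had an edgeR adjusted p of 0.364, without 3 min replicate 3 Rps2 had 0.205, without 3 min replicate 1 Rpl6 and Rpsa had 0.241 and 0.301, and without low trypsin replicate 2 Rpl7a had 0.269. Translation factors, which act on the same ribosomes, had a median of -0.05: of 36, none rose and 2 fell, Eef1a1, the factor that brings aminoacyl-tRNA (-0.46 ± 0.12, edgeR adjusted p = 0.0124), and Eif4g1, the scaffold of the cap-binding complex (-0.24 ± 0.07, edgeR adjusted p = 0.0138). Both calls were lost in 3 of 6 leave-one-out fits, with edgeR adjusted p up to 0.131 without 3 min replicate 1 and 0.207 without low trypsin replicate 1. The search found 13 near-identical copies of Eef1a1 and none of Eif4g1, so the value of Eef1a1 may depend on how shared reads were counted.

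Nuclear-encoded subunits of the respiratory chain rose almost as often, beside 3.78% of all genes tested. Of 37 subunits of complex I, which takes electrons from NADH, 22 rose and none fell (median 0.37). Of 41 subunits of complexes II to V and cytochrome c, 21 rose and none fell (median 0.29). Their common share of the counts was 2.34% ± 0.07 in low trypsin, 2.06% ± 0.02 after 3 min (exact permutation p = 0.1, two-sided) and 2.41% ± 0.03 in controls. Cox6c, a small subunit of cytochrome c oxidase, had 402, 352 and 348 CPM in low trypsin and 184, 184 and 196 CPM after 3 min. No library overlapped, and the log2 difference was 0.97 ± 0.07 (edgeR adjusted p = 4.28e-15). Ndufa7 of complex I had 219.7, 210.1 and 207 CPM against 108, 122 and 111 CPM, a difference of 0.90 ± 0.08 (edgeR adjusted p = 1.18e-12). Ndufs5 rose by 1.23, the largest value of these lists, from 10.4 ± 3.23 to 24.0 ± 2.74 CPM, and has 1 near-identical copy, BC002163. Ndufa6 and Ndufa2 rose by 0.82 and 0.80, Uqcr11 of complex III by 0.85 and Cox6a1 by 0.71.

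Several catalytic subunits, picked after their values were seen, were not called. The complex I subunits Ndufs1, which carries iron-sulfur clusters, and Ndufv1, which binds the flavin, had -0.13 and 0.05; Sdha of complex II had -0.02; and the ATP synthase subunits Atp5a1 and Atp5b had 0.00 and -0.12. Of the 43 genes that rose, 29 have mRNAs of 800 nt or less. The search found copies less often here than among ribosomal proteins (18 of 78). Without genes that have one, 33 respiratory genes were called higher, against 239 of all 9362 genes in that fit. Against controls the 78 genes had a median of -0.03 in low trypsin (2 higher, 11 lower) and of -0.50 after 3 min (1 higher, 51 lower), so the low trypsin levels were the ones nearer to scraped cells. For the ribosomal proteins the medians were -0.18 in low trypsin (7 higher, 37 lower) and -0.46 after 3 min (none higher, 54 lower). These comparisons share the control libraries and are given side by side only.

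**Figure D2:**
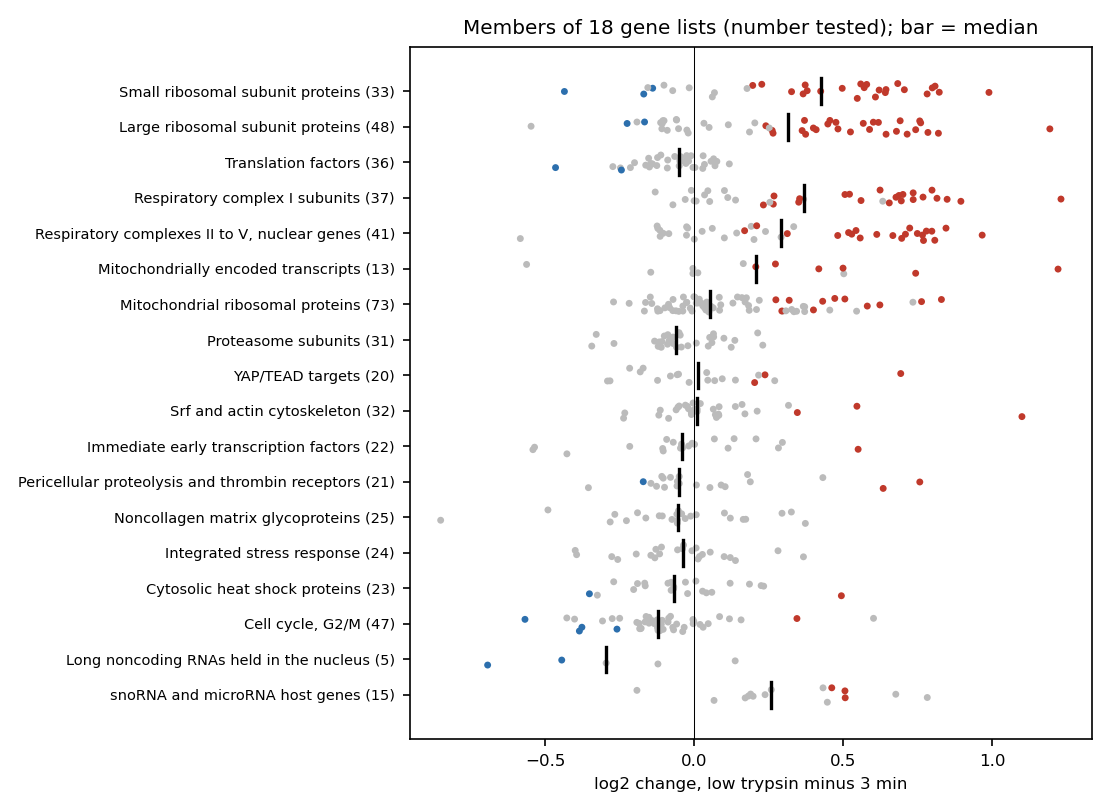
Log2 difference, low trypsin minus 3 min, of each tested member of 18 gene lists; red points were called higher, blue lower and grey neither, and the bar is the median of the list. The lists of ribosomal subunit proteins and nuclear-encoded respiratory subunits have medians of 0.29 to 0.43. Pseudogenes are not drawn.

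Of 13 transcripts encoded by mitochondrial DNA, 6 rose, none fell and 7 were not called, with a median of 0.21. mt-Cytb, the cytochrome b of complex III, had 11375, 11120.2 and 10063 CPM in low trypsin and 7859, 8232 and 8259.7 CPM after 3 min. All low trypsin libraries exceeded all 3 min libraries, and the log2 difference was 0.42 ± 0.04 (edgeR adjusted p = 1.05e-10). mt-Nd1 rose by 0.27 and mt-Nd4 by 0.21, while mt-Co1 and mt-Nd5 were at -0.00 and the ribosomal RNAs mt-Rnr2 and mt-Rnr1 at -0.15 and -0.56, not called. Low trypsin was also above control for mt-Cytb (0.68, edgeR adjusted p = 1.03e-17), for which the 3 min group stood at 0.26 (edgeR adjusted p = 1.32e-05). The mitochondrial share of all counts was 6.59% ± 0.52 in low trypsin and 6.50% ± 0.47 after 3 min and did not separate the groups (exact permutation p = 0.7, two-sided).

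The largest mitochondrial rises involved genes that have a full copy in the nuclear genome. mt-Co3 encodes a core subunit of cytochrome c oxidase, and the unprocessed pseudogene Gm28437 on chromosome 1 matches it over 783 aligned bases with 0 differing. The last 100 bases of both are shown because BRB-seq reads this end, and a read from it cannot be assigned by sequence (GENCODE M21 transcripts, GRCm38; mt-Co3 at chrM:9290-9389, plus strand, and Gm28437 at chr1:24613189-24613288, minus strand; capitals would mark differing bases, of which there are 0).
mt-Co3: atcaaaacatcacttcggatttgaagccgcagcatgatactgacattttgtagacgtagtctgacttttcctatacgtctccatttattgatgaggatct
Gm28437: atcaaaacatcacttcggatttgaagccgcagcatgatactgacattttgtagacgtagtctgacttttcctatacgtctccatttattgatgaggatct

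Gm28437 had 1463, 1591 and 1355 CPM in low trypsin and 225, 354 and 241 CPM after 3 min. The lowest low trypsin library was thus far above the highest 3 min library, and the log2 difference was 2.42 ± 0.14 (edgeR adjusted p = 8.52e-19). mt-Co3 itself rose from 244 ± 11.1 to 346 ± 21.8 CPM, a log2 difference of 0.50 ± 0.07 (edgeR adjusted p = 2.65e-07). Summed, mt-Co3 and Gm28437 had 1830, 1914 and 1704 CPM in low trypsin and 459, 609.9 and 483 CPM after 3 min. The sum is free of the choice between the genes only if each shared read was counted once, which was not stated. The sum averaged 453 ± 91.4 CPM in controls and 1059 ± 101 CPM after 30 s, so the low trypsin libraries were the highest of these 4 groups. The pair of mt-Co2 and Gm28661 (681 aligned bases, 0 differing) summed to 596 ± 116 CPM in low trypsin and 227 ± 32.1 CPM after 3 min, and that of mt-Atp6 and Gm10925 (678 aligned, 0 differing) to 819 ± 210.2 and 294 ± 85.8 CPM. mt-Co2 alone was the largest rise of a mitochondrial gene, 1.22 ± 0.07 (edgeR adjusted p = 1.38e-18), with 426, 436 and 429 CPM against 176, 197 and 180.3 CPM. The pseudogenes named, and mt-Nd1, mt-Nd4 and mt-Atp6, were chosen after their values were seen.

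Pseudogenes as a class were higher in low trypsin. Of 159 tested, 69 rose and none fell, with a median of 0.87, and 3.78% of all genes tested rose. The filter on low counts admits a gene that is high in the 3 libraries of 1 group alone. This count and median therefore hold for the tested set only and depend in part on that filter. Of the 159, 2 were at 0 in all 3 libraries of 1 group. Setting these to the bound from a floor of 3 counts over the group left the median at 0.87. The share of all pseudogenes, tested or not, in the counts was 0.985% ± 0.018 in low trypsin and 0.587% ± 0.027 after 3 min (exact permutation p = 0.1, two-sided). It was 0.595% ± 0.050 in controls and 0.809% ± 0.045 after 30 s. Gm13341, an unprocessed pseudogene on chromosome 2, had 523, 552 and 468 CPM against 202, 207 and 198 CPM (1.34 ± 0.08, edgeR adjusted p = 8.52e-19). Rpsa-ps2, a processed copy of Rpsa chosen after its values were seen, had 56.8, 40.6 and 58.9 CPM in low trypsin and 3.53, 0.546 and 1.34 CPM after 3 min, and its controls averaged 1.23 ± 0.265 CPM. Its parent Rpsa went the other way, from 837 ± 33.7 to 745 ± 16.7 CPM. Because 126 of the 159 have a near-identical copy, these values depend on how shared reads were counted. Among genes for which the search found no copy, fitted alone, 9 pseudogenes were called higher, and the pseudogene median was 0.18. In that fit 239 of all 9362 genes tested were called higher.

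Other mitochondrial and RNA-handling lists rose in a minority of members, beside 3.78% higher and 0.576% lower among all genes tested. Among 73 proteins of the mitochondrial ribosome, 11 rose and none fell (median 0.05), led by Mrpl33, from 110.4 ± 8.72 to 188 ± 18.3 CPM (0.76 ± 0.09, edgeR adjusted p = 1.05e-08), Mrpl52 (0.62) and Mrpl14 (0.47). Of 26 genes of mitochondrial import 5 rose, among them Timm13 (0.43), Chchd1 (0.56) and Timm10b (0.60), and none fell. Of 23 Sm and LSm proteins, the rings around spliceosomal RNAs, 4 rose, including Snrpe (0.66), Lsm6 (0.55) and Snrpd2 (0.68). Of 28 RNA polymerase subunits the small subunits Polr2f (0.55), Polr3k (0.45) and Polr2i (0.53) rose. Of 15 host genes of small nucleolar RNAs and microRNAs, Zfas1, Snhg1 and Snhg8 rose by 0.51, 0.46 and 0.51, with a list median of 0.26. In contrast, none of 31 proteasome subunits was called (median -0.06). Single libraries carried some of these calls: the edgeR adjusted p reached 0.0905 for Polr3k and 0.27 for Snhg1 without low trypsin replicate 1, 0.35 for Polr2i without low trypsin replicate 2 and 0.271 for Snhg8 without 3 min replicate 1.

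Length of the mRNA went with the difference. Of 297 protein-coding genes whose principal isoform has 800 nt or less, 139 rose (46.8%) and 2 fell, with a median of 0.39. Among 1133 genes of more than 800 and up to 1500 nt, 67 rose (5.91%) and the median was -0.00; the classes of up to 3000 nt and over 3000 nt had medians of -0.03 and -0.02. Short genes made up 45.9% of the higher coding genes and 3.06% of the coding genes tested. All genes of 800 nt or less together took 9.60% ± 0.38 of the counts in low trypsin, 7.16% ± 0.05 after 3 min (exact permutation p = 0.1, two-sided), 9.59% ± 0.10 in controls and 7.79% ± 0.17 after 30 s.

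The pattern held outside the ribosomal and respiratory lists and, in part, among their members with longer annotated isoforms. Where several isoforms ranked equally, the longest was taken, such as 5179 nt for Rps15a and 3706 nt for Rps20. Which isoform the cells made was not tested, so the longer classes need not hold long mRNAs alone. Of 221 other coding genes of 800 nt or less, 82 rose and 2 fell (median 0.36), while of 9327 longer ones 122 rose and 45 fell (median -0.02). Respiratory genes up to 800 nt reached a median of 0.61 with 29 of 35 higher, and longer ones 0.11 with 14 of 43 higher. Ribosomal protein genes had 0.47 with 25 of 36 higher and 0.26 with 25 of 45 higher and 5 lower. With the length trend removed from the fit, the calls changed from 381 higher and 58 lower to 268 higher and 87 lower, and the medians of the respiratory and ribosomal lists from 0.34 and 0.37 to 0.17 and 0.19. Of the named genes, Smim4, Mrpl52, Mrpl14, Chchd1, Polr2i, Snhg8, Mt2, Sod1, Smchd1, Serpinh1 and Rpsa were then not called. What length stands for in these libraries was not tested.

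**Figure D3:**
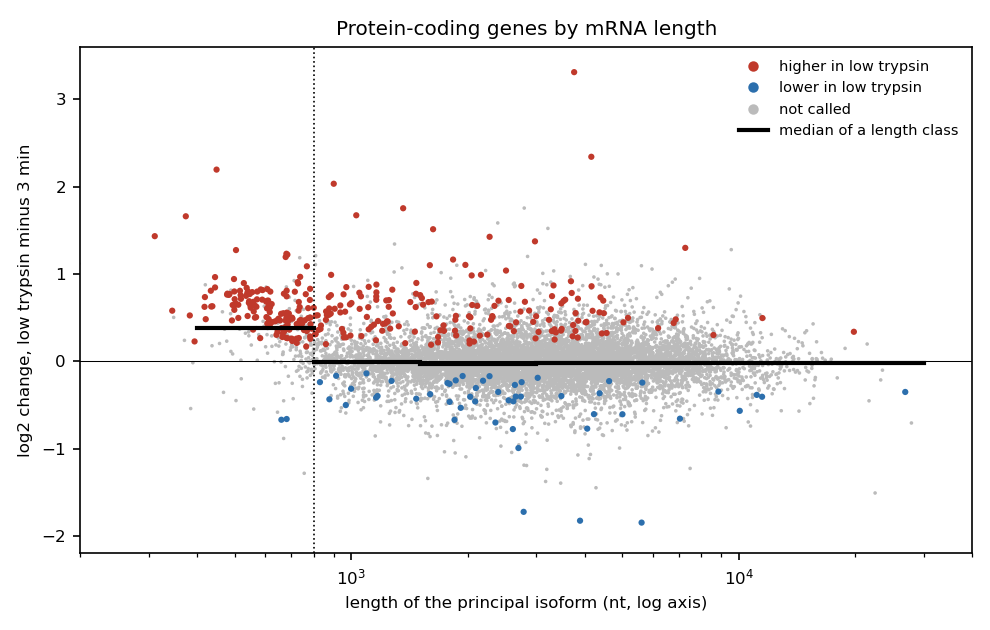
Log2 difference, low trypsin minus 3 min, of protein-coding genes against the length of their principal isoform (nt, log axis); the dotted line is at 800 nt and the black bars are the medians of 4 length classes, divided at 800, 1500 and 3000 nt, the first of which starts above 400 nt. Called genes left of the line are nearly all red, and the medians of the 3 longer classes lie at or just under 0.

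Some genes with short mRNAs outside the lists, the S100 genes, Lgals1 and Mif, were named after their values were seen and describe only themselves. S100a4, a calcium-binding protein linked to cell motility, had 3519, 3108 and 2691 CPM in low trypsin and 1684, 1514 and 1651 CPM after 3 min. The lowest low trypsin library was well above the highest 3 min library, with a log2 difference of 0.94 ± 0.06 (edgeR adjusted p = 1.38e-18). Its relatives S100a13, S100a11, S100a6 and S100a10 rose by 0.80, 0.65, 0.58 and 0.42. Lgals1, a galectin that binds sugar chains of the matrix, had 7918 ± 321 CPM after 3 min and 12114 ± 708 CPM in low trypsin (difference 0.61 ± 0.04, edgeR adjusted p = 1.23e-16). Its control level was 12156 ± 385 CPM, so low trypsin differed from control by -0.01 and 3 min by -0.62. Mif, a small cytokine, rose by 0.67. On the redox and iron list 4 of 23 rose and 1 fell, beside 3.78% higher and 0.576% lower among all genes tested. Txn1, the cytosolic thioredoxin, had 1872, 1844 and 1902 CPM against 1271, 1201 and 1232 CPM (0.60 ± 0.05, edgeR adjusted p = 4.66e-15), and the metallothioneins Mt1 and Mt2 rose by 0.64 and 0.50 and superoxide dismutase Sod1 by 0.30. Ftl1, the light chain of ferritin, fell by 0.50 ± 0.09 (edgeR adjusted p = 4.83e-05); it has 10 near-identical copies.

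Few genes of the lists for YAP and TEAD, Srf and the immediate early response were called. Of all genes tested 4.36% were called, 3.78% higher and 0.576% lower. Of 20 targets of YAP and TEAD, a co-activator and DNA-binding factor that respond to cell shape, 3 rose and none fell, and the list median was 0.01. Ccn2, a matrix-associated growth regulator, had 149, 181 and 177 CPM in low trypsin and 105, 101 and 108 CPM after 3 min. No library overlapped, and the log2 difference was 0.69 ± 0.10 (edgeR adjusted p = 8.57e-07). Controls averaged 82.2 ± 12.5 CPM and 30 s cells 139 ± 4.55 CPM; low trypsin exceeded control by 1.03 (edgeR adjusted p = 6.66e-11), and the 3 min group differed from control by 0.34 (edgeR adjusted p = 0.0913). Ccn1, its relative, had 459, 485 and 488 CPM against 393, 419 and 402 CPM (0.24 ± 0.06, edgeR adjusted p = 0.00988). Here both protocols lay above control, by 1.03 and 0.79. Ankrd1 rose by 0.20 ± 0.06 (edgeR adjusted p = 0.0304). The edgeR adjusted p rose to 0.0685 for Ccn1 without 3 min replicate 1 and to 0.285 for Ankrd1 without low trypsin replicate 3.

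The promoters of Ccn1 and Ankrd1 are shown because both genes rose and carry the letters that TEAD proteins bind; for Ccn2, which rose more, no promoter is shown. The calls of Ccn1 and Ankrd1 were lost in 3 and 4 of the 6 leave-one-out fits. The motif searched was GGAATG on either strand, which reads CATTCC on the other, and its matches are in capitals (RefSeq, GRCm38.p6; the 250 bases before the start site, 5′ to 3′ on the minus strand for both genes; chr3:145649986-145650235 for Ccn1 and chr19:36119845-36120094 for Ankrd1). Of 32851 promoters of this length 4153, or 12.6%, hold the motif.
Ccn1: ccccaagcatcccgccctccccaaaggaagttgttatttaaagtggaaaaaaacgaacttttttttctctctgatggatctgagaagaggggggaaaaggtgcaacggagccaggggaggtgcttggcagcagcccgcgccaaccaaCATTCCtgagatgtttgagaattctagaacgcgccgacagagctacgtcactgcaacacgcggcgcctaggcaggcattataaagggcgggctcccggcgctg
Ankrd1: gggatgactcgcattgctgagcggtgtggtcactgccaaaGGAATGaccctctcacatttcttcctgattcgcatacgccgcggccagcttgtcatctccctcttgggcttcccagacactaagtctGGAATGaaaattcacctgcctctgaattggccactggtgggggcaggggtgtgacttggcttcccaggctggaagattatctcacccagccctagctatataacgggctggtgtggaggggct
Ccn1 had 1 match, 103 bases before the start, and Ankrd1 had 2, at 210 and 123 bases.

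Among 32 Srf targets and actin cytoskeleton genes, 3 rose and none fell, with a median of 0.01, while 3.78% of all genes tested rose. Tagln, the actin-binding protein transgelin, had 54.3, 58.5 and 48.1 CPM in low trypsin and 31.2, 21.3 and 22.1 CPM after 3 min. Its lowest low trypsin library was above its highest 3 min library, and the difference was 1.10 ± 0.18 (edgeR adjusted p = 1.11e-05). Its exons overlap those of Pcsk7 on the opposite strand. The thymosins Tmsb10 and Tmsb4x, which hold actin monomers, rose by 0.55 and 0.35; their mRNAs are under 800 nt. Actb itself had 0.08 ± 0.04 (edgeR adjusted p = 0.397).

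Immediate early transcription factors gave 1 call among 22, with a median of -0.04, while 4.36% of all genes tested were called. Egr1, a zinc finger factor induced by growth factors and stretch, had 138, 120.2 and 124 CPM in low trypsin and 96.6, 77.1 and 88.5 CPM after 3 min. All 3 low trypsin libraries were above all 3 min libraries (0.55 ± 0.11, edgeR adjusted p = 0.000464). Against control, low trypsin differed by 0.66 (edgeR adjusted p = 2.53e-05) and 3 min by 0.11 (edgeR adjusted p = 0.808). Junb and Hes1, a Notch target, did not pass the test between the protocols, with differences of -0.01 ± 0.08 and -0.12 ± 0.11 (edgeR adjusted p = 0.991 and 0.768), and both were above control in each protocol. Fos had at most 3.53 CPM in any of the 6 libraries and was not tested. Errfi1, a feedback inhibitor of the epidermal growth factor receptor, was the 1 gene of 15 MAP kinase feedback inhibitors to rise (0.34 ± 0.09, edgeR adjusted p = 0.0209); without 3 min replicate 1 its edgeR adjusted p was 0.223.

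On the list of pericellular proteolysis and thrombin receptors 2 of 21 rose and 1 fell (median -0.05). Of all genes tested 3.78% rose and 0.576% fell. The 2 that rose were Plaur and Plau. Plaur, the urokinase receptor, had 84.2, 78.0 and 94.4 CPM in low trypsin and 53.0, 45.4 and 54.3 CPM after 3 min, without overlap (0.76 ± 0.13, edgeR adjusted p = 4.83e-05). Its ligand urokinase, Plau, which activates plasminogen at the cell surface, had 53.3, 48.7 and 52.8 CPM against 39.5, 30.6 and 29.5 CPM (0.64 ± 0.16, edgeR adjusted p = 0.0103). After 30 s Plau stood at 71.8 ± 3.46 CPM (low trypsin minus 30 s -0.47, edgeR adjusted p = 0.0452). Without 3 min replicate 2 the edgeR adjusted p of Plau was 0.0844. Serpinh1, the collagen chaperone, fell by 0.17 (edgeR adjusted p = 0.0467), a call lost in all 6 leave-one-out fits with edgeR adjusted p up to 0.271 without 3 min replicate 3. F2r, the thrombin receptor, had 0.19 ± 0.07 (edgeR adjusted p = 0.181), and the trypsin receptor gene F2rl1 was not found in the count table. Of 17 collagens Col12a1 rose (0.50 ± 0.13, edgeR adjusted p = 0.0137; 0.214 without low trypsin replicate 2), and none of 25 other matrix glycoproteins or 20 surface adhesion receptors was called.

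**Figure D4:**
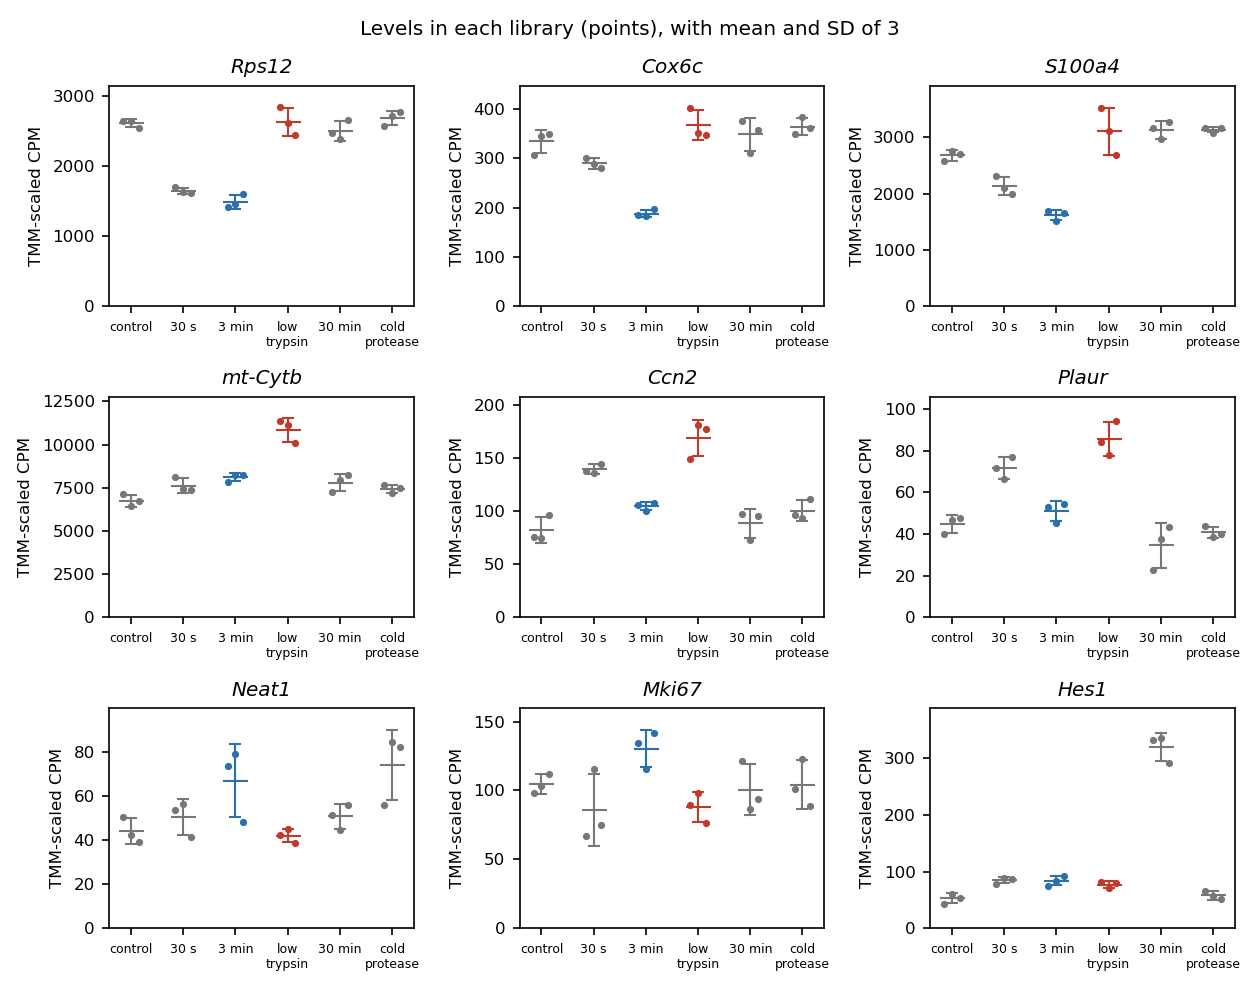
TMM-scaled CPM of 9 genes in each of the 18 libraries (points), with mean and SD of 3 per group; low trypsin is red and 3 min blue. Rps12, Cox6c and S100a4 are lowest after 3 min, mt-Cytb, Ccn2 and Plaur are highest in low trypsin, Neat1 and Mki67 are lower in low trypsin than after 3 min, and the Hes1 libraries of these groups overlap.

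The 10 largest rises among genes with at least 10 CPM and no overlap were Nkain2, Usp50, Rps27rt, Hmga1b, Smim4, Lpcat4, Wdr89, Kirrel, Ndufs5 and mt-Co2. Nkain2, which encodes a protein that binds the sodium pump, rested on few reads: its counts were 18, 17 and 28 in low trypsin and 3, 1 and 1 after 3 min. The fitted log2 difference of 3.31 ± 0.60 (edgeR adjusted p = 6.14e-05) was correspondingly wide and ran from 3.01 to 3.99 when single libraries were left out. Kirrel, a cell adhesion protein of the immunoglobulin family known for its part in myoblast fusion, stood on more, with 61.8, 66.6 and 74.8 CPM against 23.0, 28.4 and 31.5 CPM. Every low trypsin library was above every 3 min library (1.30 ± 0.15, edgeR adjusted p = 3.37e-09), and also above control by 1.62 (edgeR adjusted p = 1.85e-11), while 3 min stood at 0.32 (edgeR adjusted p = 0.508). Usp50, related to deubiquitinating enzymes, rose from 4.62 ± 2.35 to 16.2 ± 1.55 CPM (1.75), with control at 4.73 ± 2.91 CPM. Smim4 and Lpcat4 rose by 1.43 and 1.43; without 3 min replicate 1 the edgeR adjusted p was 0.0926 and 0.284. The log2 difference of Smim4 ranged from 0.98 to 2.27 over the 6 leave-one-out fits and that of Lpcat4 from 1.07 to 2.15.

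Of these 10, Rps27rt, Hmga1b, Wdr89, Ndufs5 and mt-Co2 have near-identical copies. Rps27rt, a retrotransposed copy of Rps27, rose by 1.66, from 14.2 ± 0.934 to 45.1 ± 14.3 CPM, beside 9.43 ± 3.07 CPM in controls. Hmga1b, a retrocopy of the chromatin protein gene Hmga1, rose by 1.51. Wdr89 had 73.7, 75.8 and 66.3 CPM in low trypsin and 27.7, 29.0 and 26.1 CPM after 3 min (1.37 ± 0.15, edgeR adjusted p = 2.08e-10); its 3′ end shares sequence with the ribosomal protein gene Rplp2, which rose by 0.57.

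The lower genes were fewer and less firmly set. Without low trypsin replicate 1 their number fell from 58 to 23, without 3 min replicate 2 to 31 and without 3 min replicate 3 to 35, and DESeq2 gave 31. Of the named lower genes DESeq2 did not call Mki67, Malat1, Lars2, Nsa2, Clcf1, Smchd1, Rpl6 and Rps6, and of the named higher genes it did not call Lpcat4, Errfi1, Snhg8, Gm28661 and Gm10925. Long noncoding RNAs that stay in the nucleus had a median of -0.29: of 5 tested, Neat1 and Malat1 fell and none rose. Of all genes tested 0.576% fell. Neat1, the scaffold of paraspeckles, had 42.3, 44.9 and 38.8 CPM in low trypsin and 73.6, 79.2 and 48.3 CPM after 3 min. The 3 min library with the lowest value lay just above the highest low trypsin library (-0.69 ± 0.16, edgeR adjusted p = 0.0025). Malat1, a nuclear speckle RNA, had 183, 273 and 191 CPM against 259, 348 and 267 CPM, and here the groups overlapped (-0.44 ± 0.12, edgeR adjusted p = 0.0118). Low trypsin did not differ from control by the test for either (-0.06 and 0.02, edgeR adjusted p = 0.926 and 0.974), and 3 min was above control by 0.63 and 0.46 (edgeR adjusted p = 0.0082 and 0.00999). Without 3 min replicate 2 the edgeR adjusted p was 0.0892 for Neat1 and 0.338 for Malat1.

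Of 47 genes of the G2 and M phases, 4 fell and 1 rose, with a median of -0.12; of all genes tested 0.576% fell and 3.78% rose. Mki67, a coat of mitotic chromosomes used as a proliferation marker, had 89.2, 98.0 and 76.6 CPM in low trypsin and 134, 115 and 141 CPM after 3 min. The groups did not overlap (-0.57 ± 0.13, edgeR adjusted p = 0.00306), although controls, at 105 ± 7.07 CPM, lay between. By the search for near-identical copies, the end of Mki67 matched 1 other gene, that of Tubb4b 3 and that of Cenpf 27. Such matches can be shared stretches and not copies of the gene. These values may depend on how shared reads were counted. Tubb4b, a tubulin, Cenpf, a kinetochore protein, and Cdc20, an activator of the anaphase-promoting complex, fell by 0.38, 0.38 and 0.26, and Hmgb2, a chromatin protein, rose by 0.35. Without 3 min replicate 2 the edgeR adjusted p was 0.0678 for Cenpf and 0.0748 for Hmgb2. None of 27 S phase genes was called.

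The 10 largest falls among genes with at least 10 CPM and no overlap were those of Noc2l, Nsa2, Zbtb22, Trmt10a, Atoh8, Neat1, Clcf1, Smchd1, Nudt21 and Nkap. Noc2l, a nucleolar protein, fell by 1.72 ± 0.40, from 11.8, 23.5 and 10.7 CPM after 3 min to 4.98, 5.42 and 3.74 CPM in low trypsin (edgeR adjusted p = 0.00296); it shares exons with Samd11 on the opposite strand, and without 3 min replicate 2 the edgeR adjusted p was 0.168. Nsa2, a factor of large subunit assembly, fell by 0.99 and Trmt10a, a tRNA methyltransferase, by 0.77. Nudt21, which sets the choice of poly(A) sites, had 40.3, 38.4 and 48.6 CPM against 68.3, 71.0 and 54.3 CPM (-0.61 ± 0.14, edgeR adjusted p = 0.00308). Its control level was 66.6 ± 5.86 CPM, so low trypsin was below control (-0.63, edgeR adjusted p = 0.00153). Atoh8, a helix-loop-helix factor and the only one of 8 BMP targets called, fell by 0.70, the cytokine gene Clcf1 by 0.67, the zinc finger gene Zbtb22 by 0.78, Smchd1, which keeps the inactive X chromosome silent, by 0.66 and the transcription and splicing factor gene Nkap by 0.61. Each of these 9 coding genes lost its call in at least 1 leave-one-out fit: 1 of 6 for Noc2l, Trmt10a and Nudt21, 2 for Zbtb22 and Atoh8, 3 for Nkap, 4 for Nsa2 and Clcf1 and 6 for Smchd1. The highest edgeR adjusted p was 0.224 for Nsa2 and 0.191 for Smchd1 without low trypsin replicate 2, 0.198 for Zbtb22 and 0.162 for Nkap without 3 min replicate 3, 0.0636 for Trmt10a without 3 min replicate 1, and 0.0937 for Atoh8, 0.138 for Clcf1 and 0.0568 for Nudt21 without 3 min replicate 2.

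The steepest falls outside that rule, named after their values were seen, were CT010467.1 and Lars2. CT010467.1, annotated as a ribosomal RNA gene on chromosome 17, had 97.1, 102 and 84.1 CPM in low trypsin and 338, 351 and 1019 CPM after 3 min (-2.58 ± 0.23, edgeR adjusted p = 7.45e-13). Replicate 3 of the 3 min group stood far above the rest, and the difference ran from -2.84 to -1.86 when single libraries were left out. The control mean was 351 ± 129.9 CPM, so low trypsin was below control as well (-1.90, edgeR adjusted p = 2.8e-08). Lars2, a mitochondrial leucyl-tRNA synthetase, ranged from 56.5 to 404 CPM across the 3 min libraries, which overlapped with low trypsin. Its fall of 1.83 (edgeR adjusted p = 0.00105) ranged from -2.27 to -0.87 over the leave-one-out fits, with an edgeR adjusted p of 0.351 without 3 min replicate 3.

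Metabolic and chaperone lists gave scattered calls, while 4.36% of all genes tested were called. The glycolytic enzyme Eno1 fell by 0.41 ± 0.08 (edgeR adjusted p = 1e-04) and Tpi1 rose by 0.19 ± 0.05 (edgeR adjusted p = 0.0264), the 2 calls among 16. Of 23 cytosolic heat shock proteins Hspe1, a short mRNA for the mitochondrial co-chaperonin, rose by 0.49 and Hspa8, the constitutive HSP70, fell by 0.35; the inducible Hspa1b had 0.23 ± 0.14 (edgeR adjusted p = 0.521). Des, the muscle intermediate filament, fell by 0.19, the only call among 13 myoblast identity genes, and none of 15 sarcomere and fusion genes was called. No gene was called among 24 of the integrated stress response (Atf4 at -0.06 ± 0.06, edgeR adjusted p = 0.774), 20 endoplasmic reticulum chaperones, 17 chemokine and NF-kB genes, 11 of the Notch pathway, 23 of cholesterol synthesis or 15 FoxO targets. A missing call does not show that the levels were alike. Without low trypsin replicate 1 the edgeR adjusted p was 0.143 for Tpi1 and 0.0854 for Hspa8, and without 3 min replicate 3 it was 0.0832 for Des. The search found 4, 8 and 1 near-identical copies of Eno1, Hspa8 and Hspe1, so their values may depend on how shared reads were counted.

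Set beside scraped cells, the lists fell into different patterns. For ribosomal and respiratory lists the low trypsin medians of -0.18 and -0.03 were nearer to control than the 3 min medians of -0.46 and -0.50, and for nuclear long noncoding RNAs the values were 0.02 and 0.63. For mitochondrially encoded transcripts and pseudogenes the low trypsin medians of 0.38 and 0.83 were farther from control than the 3 min medians of 0.14 and -0.10. The pseudogene medians hold for those tested, which the filter on low counts could admit through 1 group alone. Medians of the YAP and TEAD targets were 0.11 and 0.14. Compared with cells given trypsin for 30 s, low trypsin had 300 genes called (2.98%), 257 higher (2.55%) and 43 lower (0.427%), with 46 of 81 ribosomal protein genes higher and 5 lower (median 0.29), whereas 3 min and 30 s cells differed in 195 genes (1.94%), 48 higher (0.476%) and 147 lower (1.46%) after 3 min.

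**Figure D5:**
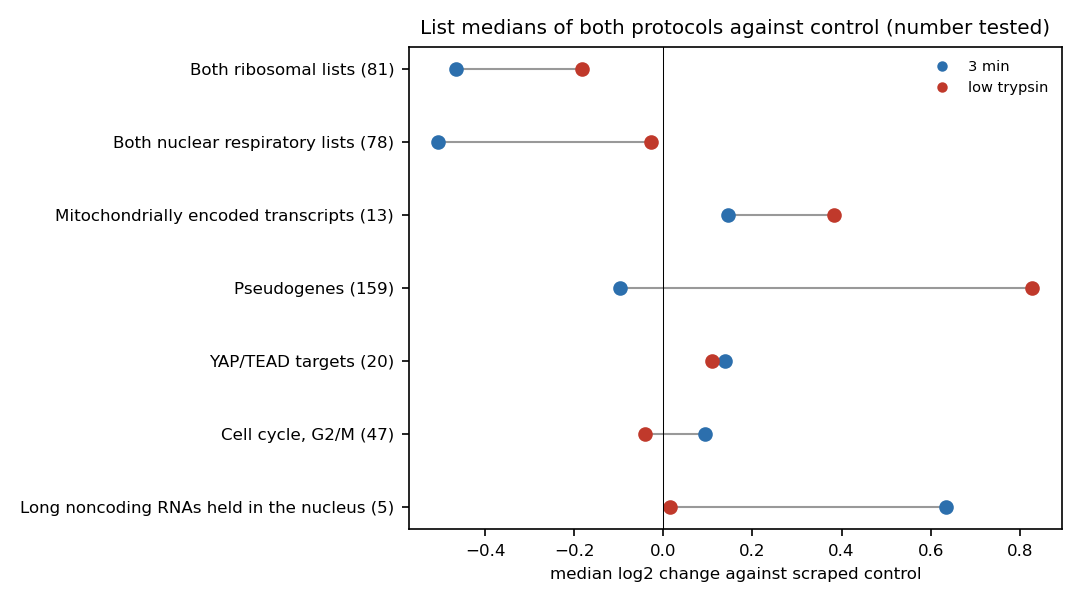
Median log2 difference from scraped control of 7 gene lists, with the number of genes tested; blue points are the 3 min group and red points low trypsin, joined for each list. Red lies nearer to 0 for the ribosomal, respiratory and nuclear noncoding lists and farther from 0 for pseudogenes and mitochondrially encoded transcripts.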

How the data were processed

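Whole-number counts per gene were used as the authors deposited them, for 25957 genes and 18 libraries. The deposited normalized counts and TPM were not used. The submitters' processing notes name GRCm38, HISAT2 2.1.0, Trim Galore 0.6.6, cutadapt 2.6, UMI-tools 1.0.1, featureCounts 2.0.1 and DESeq2 1.28.1. Which strand was counted, how multiply matching reads were treated and other settings are not given in the sources used here. Groups came from the sample titles.

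From the counts, edgeR 4.0.16 (R 4.3.3) fitted all 18 libraries together with TMM scaling after filterByExpr by group, which kept 10075 genes, and tested low trypsin minus 3 min with a quasi-likelihood F test (Benjamini-Hochberg, 0.05). CPM are TMM-scaled. In the 6 libraries 3 counts, taken as the floor for counting error alone, equal 1.39 to 2.01 CPM. Positions, gene types and lengths (best-ranked APPRIS isoform, the longest where several ranked equally) came from GENCODE M21, 1-based. A near-identical copy is another gene that matches the last 500 nt of that isoform at 95% identity or more over at least 100 nt. A shared stretch is enough, so a match need not be a copy of the whole gene: those of Noc2l are Mapk12, Sdhaf2 and Tulp4. The search can also miss copies, as it found none of Rpsa. Of 108 named genes, 48 share exon positions with another annotated gene.

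Named genes were the 10 largest rises and 10 largest falls among called genes with at least 10 CPM and no overlap of libraries, pseudogenes and predicted genes passed over, up to 3 called members of each of 35 lists, and 10 genes always named. The lists came from general knowledge. Rpl24, Rpl23a, Rps2, Rpl7a, Rpl6, Rpsa, Rps6, Hmgb2, Cenpf, Mt2 and Sod1, like the genes so marked in the text, were named after their values were seen. Members, lists and rules were chosen with earlier results of these data known. The test script was checked on simulated counts of 10075 genes, 200 of them changed. It recovered 42% of changed genes at a log2 change of 0.5 and 79% at 1, with 7 false calls.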

Additional observations from a re-analysis of the deposited data

How the results depend on the processing

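The counts of 439 called, 381 higher and 58 lower genes stayed within 1.5 times under relative log expression and upper-quartile scaling, without a filter on low counts, at a mean of 10 CPM or more, with only the 6 libraries, with the length trend removed (268 higher, 87 lower) and with protein-coding genes alone. DESeq2 1.42.0 gave 356 called, with 31 lower. Without mRNAs of 800 nt or less, 203 were called, 174 higher and 29 lower. With genes that have no near-identical copy alone, an alternative chosen after seeing the data, 262 were called, 239 higher and 23 lower. Leaving out each library in turn gave 339 to 426 called, 316 to 363 higher and 23 to 63 lower. Of 101 named genes called, 65 kept their call in all 6 of these fits, 36 lost it in at least 1, and none reversed under any alternative run; 11 lost it with the length trend removed and 13 by DESeq2.

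Low trypsin and 3 min libraries share lot numbers. The deviations of same-numbered libraries correlated at 0.02, 0.03 and 0.03 across genes, no pair above 0.1, so the numbers were not taken as pairs, although each library correlated best with its own number. With the replicate number as a block, 432 genes were called, 378 higher and 54 lower, and 3 named genes lost their call, Smchd1, Serpinh1 and Rpl7a (edgeR adjusted p = 0.0583, 0.0552 and 0.0552). At these depths 3 counts equal 1.39 to 2.01 CPM, which limits what can be said of genes near that level.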
